A study of Homo sapiens with 33 samples.

Results

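The genes described here are 8 transcription factors that pattern the rostral neural plate, namely OTX2, SIX3, SIX6, LHX2, RAX, HESX1, ZIC1 and EMX2. They were chosen by name from the 35805 genes of the RNA table and from the promoter windows of the ChIP-seq table, and all 8 were found in both. The samples were H9 ESCs, a human embryonic stem cell line, grown on irradiated mouse embryonic fibroblasts. ESCs of 4 genotypes were profiled. EZH2+/+ (WT) ESCs were unmodified, EZH2-/+ (Het) ESCs came from a clone with 1 allele disrupted by CRISPR/Cas9, and EZH2-/- (Null) ESCs were derived from an EZH2-/+ line that carried a DOX-inducible EZH2 transgene on piggyBac and was targeted again. EZH2-/- +EZH2 (Null + EZH2) ESCs carry the same disrupted alleles and were given DOX, so that EZH2 was expressed from the transgene. The line and its history therefore cannot be told apart from the genotype in a comparison with EZH2+/+. EZH2-/- and EZH2-/- +EZH2 share both but differ in DOX, whose own effect cannot be told apart from that of EZH2. EZH2 RNA averaged 304 RPM in EZH2-/- +EZH2 and 63.8 RPM in EZH2+/+, so the restored level was not the wild-type one. RNA-seq was made from 3 libraries per genotype of cells sorted for the surface marker SSEA4. The ChIP-seq table holds 1 value per genotype for H3K27me3, H3K4me3, H3K27ac, H3K4me1 and input, each the mean of 2 libraries by the sample descriptions, and 1 library of EZH2 in EZH2+/+ ESCs.

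EZH2 is the catalytic subunit of Polycomb repressive complex 2, which methylates lysine 27 of histone H3 and marks the promoters of silent developmental genes. In pluripotent cells most such promoters also carry H3K4me3, a combination called bivalent. OTX2 and HESX1 are homeobox genes of the anterior epiblast and neural plate, RAX, SIX3, SIX6 and LHX2 form the eye field network that precedes the optic vesicles, ZIC1 encodes a zinc finger protein of the neural plate border and dorsal neural tube, and EMX2 acts in the dorsal telencephalon.

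OTX2 and HESX1 each have a pair of starts at which the change of H3K27me3 in EZH2-/+ ESCs was not the same. The bases in front of a RefSeq start in the window of each are shown, with EMX2 for contrast. Each run holds the 250 bases before a start annotated by RefSeq on GRCh38.p14, 5′ to 3′ on the strand of the gene. The capitals mark every CG dinucleotide, the site of DNA methylation.
OTX2 upstream start, chr14:56810480-56810729, minus strand: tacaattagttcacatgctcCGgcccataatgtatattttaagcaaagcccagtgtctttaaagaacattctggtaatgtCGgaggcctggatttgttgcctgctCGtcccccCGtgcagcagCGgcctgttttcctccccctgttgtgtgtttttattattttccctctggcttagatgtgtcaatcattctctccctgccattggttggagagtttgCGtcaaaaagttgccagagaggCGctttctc
OTX2 downstream start, chr14:56805668-56805917, minus strand: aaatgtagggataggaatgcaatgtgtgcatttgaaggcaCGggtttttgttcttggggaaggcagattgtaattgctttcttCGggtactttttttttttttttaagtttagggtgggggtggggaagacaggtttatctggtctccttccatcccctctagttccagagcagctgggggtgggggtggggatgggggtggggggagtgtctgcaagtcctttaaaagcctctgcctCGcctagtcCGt
HESX1 upstream start, chr3:57227616-57227865, minus strand: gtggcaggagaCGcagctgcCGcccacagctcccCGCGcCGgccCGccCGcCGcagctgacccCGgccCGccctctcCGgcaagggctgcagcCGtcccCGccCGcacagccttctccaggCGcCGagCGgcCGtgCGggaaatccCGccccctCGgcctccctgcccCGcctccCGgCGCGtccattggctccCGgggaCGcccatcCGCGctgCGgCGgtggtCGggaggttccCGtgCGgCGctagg
HESX1 downstream start, chr3:57199979-57200228, minus strand: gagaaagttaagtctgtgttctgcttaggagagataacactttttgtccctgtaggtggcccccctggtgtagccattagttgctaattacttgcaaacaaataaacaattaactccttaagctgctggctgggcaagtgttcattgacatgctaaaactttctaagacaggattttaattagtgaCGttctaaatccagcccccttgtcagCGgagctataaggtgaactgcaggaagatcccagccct
EMX2, chr10:117542496-117542745, plus strand: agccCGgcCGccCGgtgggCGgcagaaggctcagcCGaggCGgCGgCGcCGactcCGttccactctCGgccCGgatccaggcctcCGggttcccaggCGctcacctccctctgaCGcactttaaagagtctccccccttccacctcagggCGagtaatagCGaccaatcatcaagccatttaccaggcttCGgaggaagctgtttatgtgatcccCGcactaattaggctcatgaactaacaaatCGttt

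The OTX2 starts have 7 and 4 CG dinucleotides, and 58.9% and 70.7% of the 35114 RefSeq promoters of this length hold at least as many. The HESX1 starts stand at opposite ends, with 35 CG upstream (5.80% of promoters hold at least as many) and 2 CG downstream (85.3%). The upstream HESX1 start lies in a 5 kb window in which APPL1, an endosomal adaptor gene, also begins. That window is centred on another HESX1 start, chr3:57226521, so the CG count is not that of the start at its centre. The sequences of LHX2 and ZIC1 lie outside the windows that represent these genes below. EMX2 has 20 CG (32.4%), LHX2 25 (21.6%), ZIC1 23 (25.8%), SIX6 16 (41.0%) and RAX 15 (42.9%), against a median of 11 over the whole set. No promoter sequence was used for SIX3.

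The RNA libraries, whose depth was recovered from the smallest RPM steps, held 25.02 to 56.8 M reads (units of 1000000), of which 16.6 to 36.6 M lay on genes, and the level that 3 reads give was between 0.0528 and 0.120 RPM (reads per 1000000 mapped reads). The targeted gene followed the labels. Its RNA stood at 68.6, 63.3 and 59.5 RPM with both alleles intact (EZH2+/+), 55.4, 52.3 and 45.7 RPM with 1 (EZH2-/+), 11.5, 8.65 and 9.68 RPM with none (EZH2-/-), and 271, 385 and 256 RPM where the transgene was expressed. The summed level of 12 pluripotency genes was 2609 to 4606 RPM in the 12 libraries. The summed level of 8 definitive endoderm markers was 166 to 470 RPM in EZH2-/-, against 24.3 to 51.2 RPM in EZH2+/+ and 26.0 to 56.2 RPM in EZH2-/- +EZH2, and none of the 8 was at 0 in any library. EZH2-/+ replicate 2 stood apart from the other EZH2-/+ libraries with 458 RPM of these markers, against 71.0 and 16.2 RPM. The neuroectoderm genes SOX1 and PAX6 were at 9.41, 9.33 and 3.50 RPM and at 8.48, 8.11 and 3.37 RPM in EZH2+/+, above every other library. They belong to a list of 12 neuroectoderm genes, of which 10 were tested and 5 were lower and 1 higher in EZH2-/- than in EZH2+/+, beside 18.8% and 12.6% of all genes tested. The summed level of the list was 510 to 562 RPM in EZH2-/- and 444 to 525 RPM in EZH2+/+. In bulk RNA, fewer cells of a type and less RNA per cell cannot be told apart.

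OTX2 was the most abundant member and HESX1 the next, and the other 6 were at 2.45 RPM or less in every library. Per kilobase of exon, OTX2 averaged 14.8 RPM in EZH2+/+ ESCs and HESX1 1.90 RPM, while ZIC1 averaged 0.217, LHX2 0.203, EMX2 0.110, RAX 0.0845, SIX3 0.0653 and SIX6 0.0141 RPM. Those last 6 levels rest on 5 to 191 reads per gene over the 3 libraries, and their EZH2+/+ libraries overlapped between neighbours in this order. A linear model across all genes on log2(RPM + 0.1), in which genes averaging 0.1 RPM or more were tested (20608 of 35805) and a call needs a Benjamini-Hochberg adjusted p under 0.05 in limma, took in 7 of the 8 members. SIX6 was below that level.

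Within the shared line, EZH2-/- was compared with EZH2-/- +EZH2, which differs in DOX and has EZH2 RNA above the EZH2+/+ level. Of the 7 members tested, 1 was higher (ZIC1) and 0 were lower, against 2.63% of all genes called higher and 0.524% called lower (542 and 108 genes). At an unadjusted p under 0.05 the counts of members were also 1 and 0. With the replicate number as a block the counts over all genes were 1276 and 661, and the counts of members did not move. The median log2 fold change was 0.10 over the members and 0.02 over all genes.

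ZIC1 was higher in EZH2-/- than in EZH2-/- +EZH2, though not higher than in EZH2+/+ (log2 fold change -0.10, adjusted p = 0.909 in limma). Its levels were 2.45, 1.03 and 0.653 RPM in EZH2-/- and 0.129, 0.107 and 0.200 RPM in EZH2-/- +EZH2. The libraries did not overlap, and the log2 fold change was 2.42 (SE 0.57, adjusted p = 0.0392). The call was lost, with the direction kept, when the pseudocount was 0.5 RPM (adjusted p = 0.0559) and when any 1 EZH2-/- or EZH2-/- +EZH2 library or EZH2+/+ replicate 2 was left out, where the log2 fold change over all libraries left out in turn ran from 1.93 to 2.81. ZIC1 shares part of its span with ZIC4 on the other strand, and the reads were counted without strand. ZIC4 stood at 0.264, 0.319 and 0.0297 RPM in EZH2-/- and at 0.0514, 0 and 0.03997 RPM in EZH2-/- +EZH2.

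None of the eye field genes passed the test. SIX3, a repressor of Wnt signalling in the forebrain, was at 0.422, 0.225 and 0.208 RPM in EZH2-/- and at 0.129, 0.0536 and 0.03997 RPM in EZH2-/- +EZH2. These libraries did not overlap, yet they rest on 43 and 8 reads, and the log2 fold change of 1.14 (SE 0.54) had an adjusted p of 0.311. LHX2, a LIM homeobox gene needed for the optic vesicle, was at 1.09, 0.957 and 0.801 RPM and at 0.566, 0.456 and 0.3997 RPM, again without overlap, with a log2 fold change of 0.87 (SE 0.47, adjusted p = 0.383). RAX, among the earliest genes of the eye field, was at 0.0704, 0.0188 and 0.178 RPM and at 0, 0.107 and 0.120 RPM, where the libraries overlapped (log2 fold change 0.10, SE 0.53). SIX6, a paralog of SIX3, gave 5, 6 and 0 reads in EZH2-/- and 0 reads in all 3 EZH2-/- +EZH2 libraries. An exact permutation test over the 6 libraries gave a two-sided p of 0.4, where 0.1 is the smallest possible. SIX6 lies within the span of C14orf39 on the other strand, which had more reads in every library.

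OTX2, HESX1 and EMX2 did not pass the test in this comparison. OTX2 was at 65.4, 51.3 and 49.0 RPM in EZH2-/- and at 72.9, 56.9 and 68.5 RPM in EZH2-/- +EZH2 (log2 fold change -0.26, SE 0.39, adjusted p = 0.780). HESX1 was at 3.22, 0.995 and 2.05 RPM and at 3.78, 4.93 and 2.60 RPM (log2 fold change -0.92, SE 0.58, adjusted p = 0.465), with overlapping libraries. EMX2 gave 1 read in all in each genotype.

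Against EZH2+/+ ESCs, EMX2 was lower in EZH2-/- ESCs. EMX2 averaged 0.120 RPM over the 12 libraries and passed the filter of 0.1 RPM only through EZH2+/+. Each of the other genotypes averaged under 0.1 RPM. It was at 0.710, 0.101 and 0.262 RPM in EZH2+/+, which is 32, 4 and 12 reads, and at 0, 0 and 0.0297 RPM in EZH2-/-. The libraries did not overlap, and the log2 fold change was -1.84 (SE 0.47, adjusted p = 0.0107). From the pooled reads, 1 in 91.5 M reads on genes against 48 in 85.7 M, the ratio was 0.0195 with an exact 95% counting interval of 0.000484 to 0.114. This interval covers counting error of the pooled reads only and not the spread between libraries. EMX2OS, which overlaps EMX2 on the other strand, was at 0.733, 0.0507 and 0.350 RPM in EZH2+/+ and at 0.0176, 0.113 and 0.0297 RPM in EZH2-/-. SOX1 (log2 fold change -5.89, SE 0.49, adjusted p = 1.21e-05) and PAX6 (-2.57, SE 0.50, adjusted p = 0.00227) were also lower in EZH2-/-, while NES, of the same neuroectoderm list, was higher (333 against 214 RPM, log2 fold change 0.65, adjusted p = 0.0207), and the part of neural cells in the level of EMX2 was not tested.

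EMX2 was the only member called in EZH2-/- against EZH2+/+ ESCs, with 1 of 7 lower and 0 of 7 higher, where 18.8% of all genes were called lower and 12.6% higher. At an unadjusted p under 0.05, 2 members were lower and 0 higher. The second was RAX, at 0.466, 0.254 and 0.240 RPM in EZH2+/+ and lower in each EZH2-/- library (log2 fold change -1.20, SE 0.53, adjusted p = 0.104). LHX2 was higher in each EZH2-/- library than in any EZH2+/+ library, which were at 0.444, 0.380 and 0.699 RPM, but the difference did not pass (log2 fold change 0.81, SE 0.47, adjusted p = 0.208). ZIC1 was at 2.198, 1.70 and 0.546 RPM in EZH2+/+, so its EZH2-/- libraries lay within the range of wild-type cells or just above it (log2 fold change -0.10, SE 0.57). SIX3 in EZH2+/+ was at 0.466, 0 and 0.0656 RPM, and OTX2 at 86.1, 18.9 and 46.0 RPM, and the EZH2-/- libraries of both fell inside these ranges. HESX1 was at 5.37, 1.17 and 1.99 RPM in EZH2+/+, again overlapping with EZH2-/-. SIX3 was called higher without EZH2+/+ replicate 1 (log2 fold change 1.54, adjusted p = 0.0228) and LHX2 without EZH2-/+ replicate 3 (0.81, adjusted p = 0.0317). The median of all genes was -0.13 in this comparison, and rescaling the libraries by their median ratio changed the split over all genes from 2593 higher and 3870 lower to 3378 and 2822, while EMX2 stayed lower (log2 fold change -1.76) and ZIC1 moved to 0.02.

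With EZH2 expressed from the transgene, ZIC1 and EMX2 were below their level in EZH2+/+ ESCs. In EZH2-/- +EZH2 against EZH2+/+, 2 of 7 members were called lower and 0 higher, with 6.90% of all genes called lower and 3.40% higher (1422 and 701 genes, or 3321 and 1290 with the replicate block). At an unadjusted p under 0.05, 3 members were lower and 0 higher. ZIC1 was lower by a log2 fold change of -2.52 (SE 0.57, adjusted p = 0.0157) and EMX2 by -1.80 (SE 0.47, adjusted p = 0.0284), with no overlap of libraries for either. The pooled ratio of EMX2 was 0.0275, with an exact 95% counting interval of 0.000682 to 0.161 that again leaves out the spread between libraries. Both calls were lost without EZH2-/- +EZH2 replicate 1 or 2 and without EZH2+/+ replicate 1, and also without EZH2+/+ replicate 2 for ZIC1 and replicate 3 for EMX2, with log2 fold changes from -3.07 to -2.15 for ZIC1 and from -2.28 to -1.27 for EMX2. The median of all genes was -0.15, and after rescaling by the median ratio the split over all genes was 1030 higher and 877 lower. RAX had 0, 4 and 3 reads in EZH2-/- +EZH2 and a log2 fold change of -1.30 (SE 0.53, adjusted p = 0.145).

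In EZH2-/+ ESCs, which keep 1 intact allele, OTX2, HESX1, SIX3 and RAX had their highest means of the 4 genotypes. OTX2 was at 127, 99.5 and 90.7 RPM, above all 3 EZH2+/+ libraries, with a log2 fold change of 1.31 (SE 0.39, adjusted p = 0.174). HESX1 was at 13.5, 15.1 and 4.38 RPM, where the lowest library fell below the highest of EZH2+/+, with a log2 fold change of 2.00 (SE 0.58, adjusted p = 0.162). ZIC1 was at 0.465, 0.281 and 0.0712 RPM, below all 3 EZH2+/+ libraries, with a log2 fold change of -2.06 (SE 0.57, adjusted p = 0.136). In limma 0 of 7 members were called in either direction, where 0.180% of all genes were called higher and 0.966% lower, and at an unadjusted p under 0.05 there were 3 members higher and 2 lower. With the replicate block, OTX2 (adjusted p = 0.0392) and ZIC1 (adjusted p = 0.0252) were called, HESX1 was just over the threshold (adjusted p = 0.05001), and the counts over all genes were 148 higher and 446 lower (57 and 125 after rescaling by the median ratio, without the block). OTX2 was also called without EZH2+/+ replicate 1 (log2 fold change 1.82) and HESX1 without EZH2-/+ replicate 3 (log2 fold change 2.56). SIX3 was at 0.343, 0.346 and 0.658 RPM, LHX2 at 0.759, 0.756 and 0.107 RPM, RAX at 0.392, 0.0864 and 0.712 RPM, EMX2 at 0.147, 0.0216 and 0.125 RPM, and SIX6 at 0, 0 and 0.0356 RPM, and none of these 5 was separated from EZH2+/+.

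**Figure D1:**
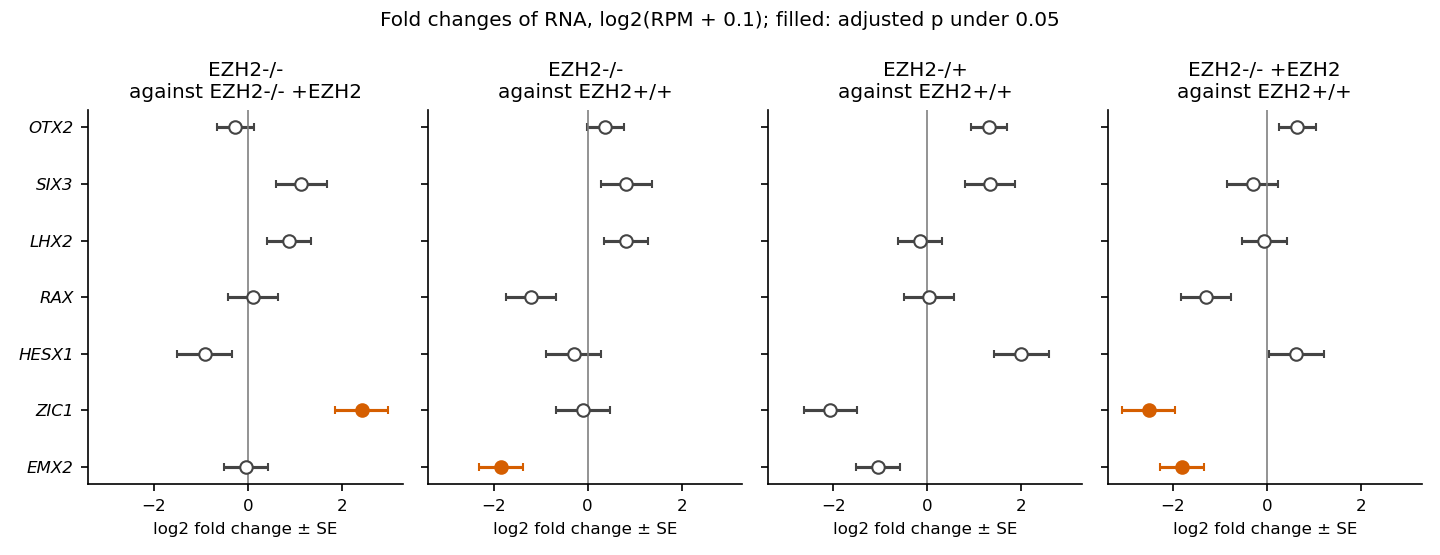
log2 fold change of RNA with its SE (horizontal axis) for the 7 tested members in each comparison, filled where the adjusted p from limma is under 0.05. ZIC1 at 2.42 and -2.52 and EMX2 at -1.84 and -1.80 are the filled points, and HESX1 at 2.00 and OTX2 at 1.31 in EZH2-/+ against EZH2+/+ are not filled.

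Across the 12 libraries, the 3 of 15499 genes whose levels resembled those of OTX2 most were CCDC109B (Pearson r = 0.959), SHISA2 (0.918), an inhibitor of Wnt and FGF signalling, and TMPRSS2 (0.908), a membrane serine protease. Those nearest to HESX1 were TNFRSF11A (0.932), the receptor RANK, NLN (0.919) and CCDC177 (0.901). These coefficients describe points that share genotype and cell culture. The other members had means under 1 RPM, at which likeness was not computed.

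Other forebrain and eye regulators formed the first list of neighbouring genes. Of 18 listed, 11 were tested, and 3 were higher and 0 lower in EZH2-/- than in EZH2-/- +EZH2 (6 and 2 at an unadjusted p under 0.05), with a median log2 fold change of 1.36 against 0.02 over all genes. Over all genes, 2.63% were called higher and 0.524% lower. The median covers only the listed genes that passed the filter. TBX3, a T-box gene of the dorsal retina and hypothalamus, averaged 11.2 against 0.827 RPM (log2 fold change 3.74, SE 0.50, adjusted p = 0.00280), and VAX2, a ventral retina gene, 1.98 against 0.0657 RPM (3.72, SE 0.31, adjusted p = 7.01e-05). Against EZH2+/+ the median was -1.36, with 4 higher and 4 lower, beside 12.6% and 18.8% of all genes. The 4 changes of largest size were SOX1 above, LHX5 (log2 fold change -4.56, SE 0.89, adjusted p = 0.00244), a LIM homeobox gene of the forebrain, VAX2 (called higher, adjusted p = 6.13e-06, with 0 reads in all 3 EZH2+/+ libraries) and TBX3 (3.38, SE 0.50, adjusted p = 0.000438). VAX2 averaged 0.0657 RPM or less outside EZH2-/-, so it passed the filter of 0.1 RPM only through the genotype in which it is high.

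Paralogs of the members were measured as a second list, 11 of 14 of which were tested. In EZH2-/- against EZH2-/- +EZH2, 2 were higher and 0 lower (4 and 1 at an unadjusted p under 0.05, and 2 lower with the replicate block), with a median of 0.20. Of all genes, 2.63% were called higher and 0.524% lower. SIX2, a regulator of kidney progenitors, was higher with a log2 fold change of 3.75 (SE 0.47, adjusted p = 0.00195). Against EZH2+/+, 3 were higher and 2 lower, beside 12.6% and 18.8% of all genes. SIX2 (3.36, SE 0.47, adjusted p = 0.000320) and EMX1, the paralog of EMX2 (2.37, SE 0.58, adjusted p = 0.00875), were higher, and ZIC5 (-1.74, SE 0.23, adjusted p = 0.000225) and ZIC2 (-1.52, SE 0.23, adjusted p = 0.000514), paralogs of ZIC1, were lower. EMX1 averaged 0.727 RPM in EZH2-/- and 0.0738 RPM in EZH2+/+, the reverse order of EMX2.

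Regulators of the midbrain, hindbrain and caudal axis, the territories that border the forebrain, formed another list. Of 15 tested of 16 listed, 6 were lower in EZH2-/+ than in EZH2+/+ and 0 higher (12 and 0 at an unadjusted p under 0.05), beside 0.966% and 0.180% of all genes, with a median log2 fold change of -2.55. In EZH2-/- against EZH2+/+, 5 were lower and 3 higher, beside 18.8% and 12.6% of all genes. HOXA2 (log2 fold change -3.42, SE 0.62, adjusted p = 0.00160), PAX2 (-2.52, SE 0.72, adjusted p = 0.0188) and EGR2 (-2.33, SE 0.50, adjusted p = 0.00430) fell, and CDX4, a caudal homeobox gene, rose (2.97, SE 0.32, adjusted p = 6.61e-05). Against EZH2-/- +EZH2 only PAX5 was called, at 2.15 (SE 0.45, adjusted p = 0.0226), of the 15, and with the replicate block 2 were. Of all genes, 2.63% were called higher and 0.524% lower there.

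Secreted antagonists and cofactors that pattern the anterior axis formed the last list, with 12 of 12 tested. In EZH2-/- against EZH2-/- +EZH2, 1 was lower, SFRP1, a Wnt antagonist (log2 fold change -1.33, SE 0.25, adjusted p = 0.0143), and 0 were higher (5 at an unadjusted p under 0.05, and 4 with the replicate block). Of all genes, 0.524% were called lower and 2.63% higher. Against EZH2+/+, LEFTY2 (5.29, SE 0.89, adjusted p = 0.000982), LEFTY1 (4.77, SE 1.24, adjusted p = 0.0120) and CER1 (3.96, SE 1.32, adjusted p = 0.0377), which antagonise Nodal, were among 4 that rose, and SFRP1 (-2.35, SE 0.25, adjusted p = 5.96e-05) was 1 of 2 that fell. Of all genes, 12.6% were called higher and 18.8% lower. CER1 is also among the endoderm markers whose sum was highest in EZH2-/-.

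At the chromatin level, 6 of the 8 promoters were heavily marked by H3K27me3 in EZH2+/+ ESCs, and those of OTX2 and HESX1 less so. Marks were read as RPM in 5 kb windows centred on each start, and a gene with several windows is represented by the one with the most H3K27me3 in EZH2+/+. SIX3, SIX6, LHX2, RAX, ZIC1 and EMX2 carried 36.9 to 48.9 RPM of H3K27me3, more than 99.0% of the 35683 promoters, and OTX2 carried 22.7 RPM and HESX1 6.20 RPM, against an input of 1.06 to 1.82 RPM at the same windows and a median of 1.96 RPM of H3K27me3 over all promoters. EZH2 itself was at 10.1 RPM at LHX2, 8.83 at EMX2, 8.46 at SIX3, 7.58 at SIX6, 5.60 at ZIC1, 3.91 at RAX and 3.20 at OTX2, each in the upper 2% of promoters, and at 0.322 RPM at HESX1, near the median of all promoters, 0.290 RPM. H3K4me3 at the 8 windows ranged from 5.08 to 19.7 RPM and H3K27ac from 0.834 to 1.98 RPM, so that H3K27ac was near the level of input.

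In EZH2-/- ESCs, H3K27me3 at all 8 promoters dropped to between 0.868 and 3.63 RPM. The log2 change against EZH2+/+ was -4.59 at SIX6, -4.57 at EMX2, -4.49 at ZIC1, -4.23 at LHX2, -4.00 at OTX2, -3.71 at SIX3, -3.31 at RAX and -2.70 at HESX1. All 8 were lower by 2-fold or more, against 48.0% of all promoters and 98.3% of the 6235 promoters that carry H3K27me3 in EZH2+/+. Against EZH2-/- +EZH2 the same 8 were lower by 2-fold or more, with 37.3% of all promoters, and log2 changes of -4.50 to -2.47. The ChIP-seq values have no replicates here, so these are differences without a test.

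In EZH2-/- +EZH2 ESCs, which were given DOX, the mark at these 8 windows was close to its EZH2+/+ level. At the downstream start of OTX2, described below, it was 2.71 RPM against 7.16 RPM in EZH2+/+. H3K27me3 at the 8 promoters in EZH2-/- +EZH2 was 5.28 to 43.6 RPM, and the log2 change against EZH2+/+ lay between -0.46 at OTX2 and -0.07 at EMX2. None of the 8 was 2-fold lower, while 5.60% of all promoters were, and the median of all promoters was -0.27.

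**Figure D2:**
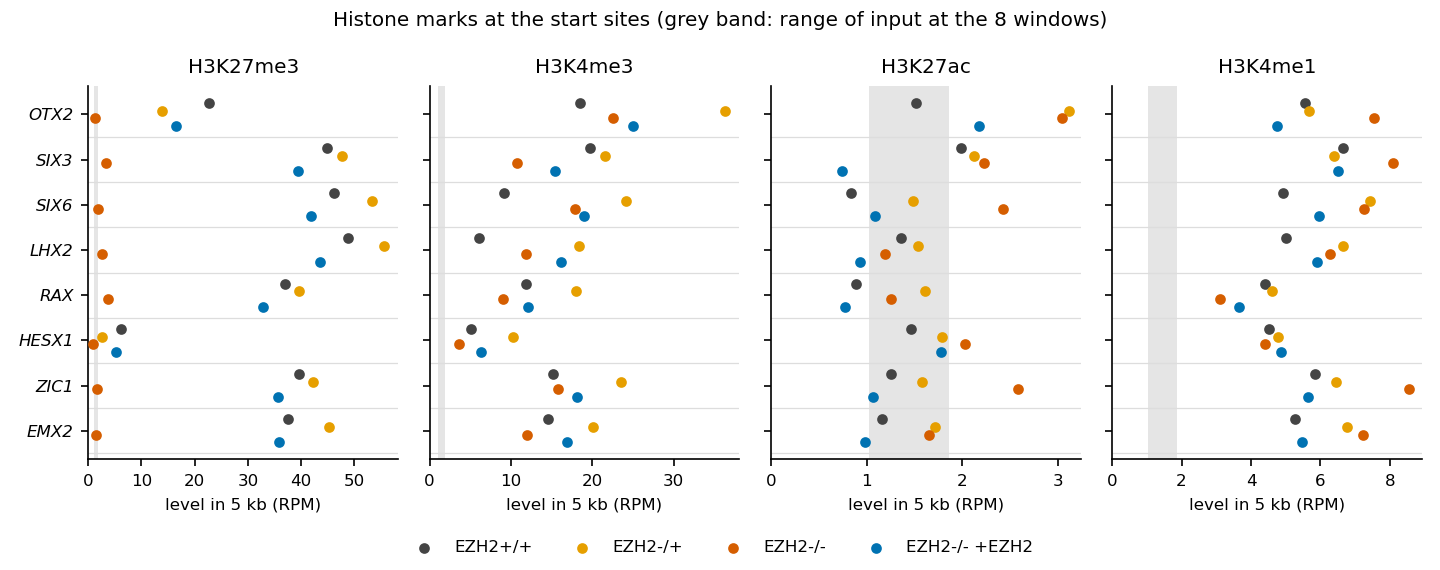
Level of each histone mark in RPM (horizontal axes, from 0) in the 5 kb window of each gene with the most H3K27me3 in EZH2+/+, with 1 point per genotype and the range of input as a grey band. H3K27me3 is at 3.63 RPM or less in EZH2-/- at all 8 genes and at 5.28 RPM or more in EZH2-/- +EZH2.

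In EZH2-/+ ESCs the mark was lower at OTX2 and HESX1 and kept at the rest. At SIX3, SIX6, LHX2, RAX, ZIC1 and EMX2 the log2 change of H3K27me3 against EZH2+/+ was 0.09 to 0.27, whereas it was -1.28 at HESX1 (95% counting interval -1.74 to -0.83) and -0.71 at OTX2 (-0.92 to -0.51). Of the 8, 1 was lower by 2-fold or more, against 4.49% of all promoters. OTX2 and HESX1 also had their highest mean RNA level in EZH2-/+. So did SIX3 and RAX, at which the log2 change of H3K27me3 was 0.09 and 0.10. The RNA log2 fold change against EZH2+/+ was 1.31 at OTX2, 2.00 at HESX1, 1.33 at SIX3 and 0.04 at RAX. None was called in the fit without the block, and SIX3 rests on 67 reads against 24. A link between the mark and the RNA was not tested.

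At OTX2 H3K27me3 fell in EZH2-/+ by the larger fold at the downstream start, the second of the sequences above, and by more RPM at the upstream start. In the window around that start (chr14:56803148-56808148), H3K27me3 was 7.16 RPM in EZH2+/+, 1.91 in EZH2-/+, 1.41 in EZH2-/- and 2.71 with the transgene. The log2 change in EZH2-/+ was -1.85 (95% counting interval -2.34 to -1.36), where input in EZH2-/+ was 1.52 RPM. At the upstream start (chr14:56807969-56812969) the levels were 22.7, 13.8, 1.33 and 16.4 RPM, so a considerable part of the mark was kept in EZH2-/+ there. With the transgene the log2 change against EZH2+/+ was -0.46 (-0.65 to -0.27) at the upstream start and -1.37 (-1.77 to -0.97) at the downstream start. H3K27ac at the downstream start was 1.54, 3.20, 2.95 and 3.71 RPM, higher in each of the other genotypes than in EZH2+/+, with input at 1.08 to 1.65 RPM. H3K4me3 there was 15.1, 28.6, 22.2 and 22.5 RPM in the same order.

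At HESX1 the loss in EZH2-/+ was found in the window of the CG-poor downstream start and not in the window that holds the CG-rich upstream sequence. In the downstream window (chr3:57197487-57202487) H3K27me3 was 6.20 RPM in EZH2+/+, 2.49 in EZH2-/+, 0.868 in EZH2-/- and 5.28 with the transgene. In the upstream window (chr3:57224021-57229021), shared with APPL1, it was 3.48, 3.35, 0.792 and 2.74 RPM, and the log2 change in EZH2-/+ was -0.06 (95% counting interval -0.53 to 0.42). H3K4me3 at the downstream start was 5.08, 10.2, 3.64 and 6.28 RPM, highest in EZH2-/+ (log2 change 0.99, 0.48 to 1.51), as at all 8 members. Most promoters that carry H3K27me3 in EZH2+/+ also had more H3K4me3 in EZH2-/+ than in EZH2+/+. At the upstream HESX1 start H3K4me3 was 11.9, 12.8, 10.5 and 8.92 RPM.

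**Figure D3:**
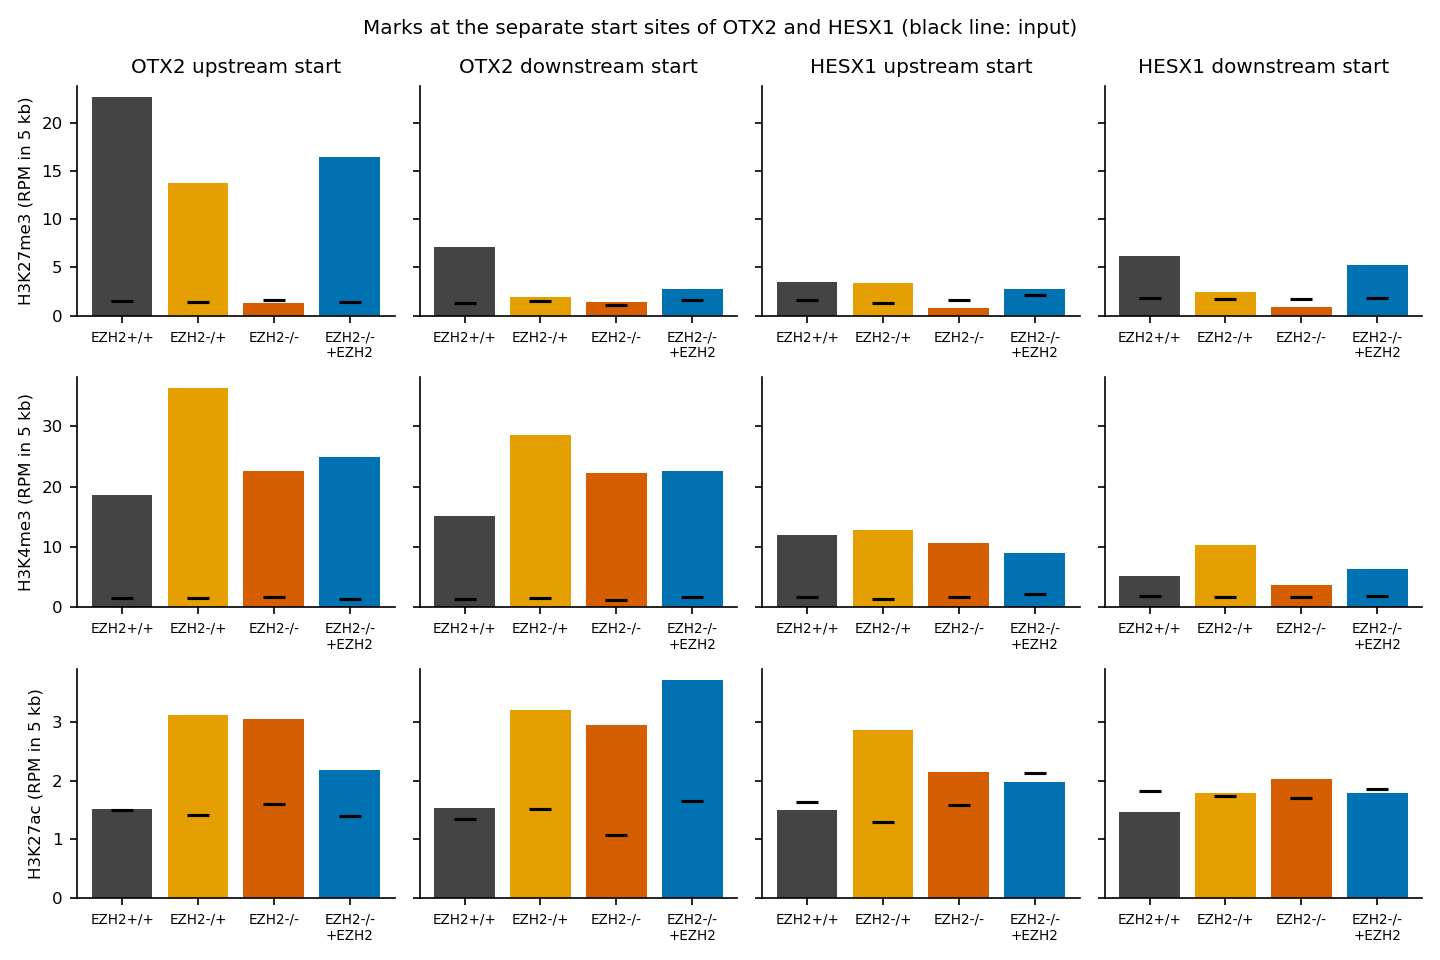
H3K27me3, H3K4me3 and H3K27ac in RPM per 5 kb window (vertical axes, from 0) at the separate starts of OTX2 and HESX1 in each genotype (bars), with input as black lines. In EZH2-/+ ESCs H3K27me3 falls to 1.91 RPM at the OTX2 downstream start and to 2.49 RPM at the HESX1 downstream start, and stays at 3.35 RPM at the HESX1 upstream start.

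RAX, EMX2, LHX2 and ZIC1 also have several windows, while SIX3 and SIX6 have 1 each. At the 4 windows of RAX, the 4 of EMX2 and the 4 of LHX2, H3K27me3 was 32.5 to 48.9 RPM in EZH2+/+ and 1.05 to 3.63 RPM in EZH2-/-. Of 5 ZIC1 windows, 4 carried 31.5 to 39.5 RPM in EZH2+/+, and the most distal start (chr3:147505441-147510441) carried 0.694 RPM, under its input of 2.32 RPM. A ZIC1 window that overlaps ZIC4 (chr3:147391395-147396395) had the most H3K27ac of the 5 in EZH2-/-, 3.60 RPM against 1.35 RPM in EZH2-/- +EZH2.

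H3K27ac, the mark of active promoters that uses the same lysine, had a log2 change above 0 at all 8 members in EZH2-/- against EZH2-/- +EZH2. The same held at 5807 of the 6235 promoters that carry H3K27me3 in EZH2+/+. The 95% counting interval included 0 at OTX2, LHX2, RAX and HESX1. Of the 8, 3 were higher by 2-fold or more in EZH2-/- than in EZH2-/- +EZH2. The share was 3.85% of all promoters and 18.5% of those that carry H3K27me3 in EZH2+/+. These were SIX3, 2.22 against 0.743 RPM (log2 change 1.46, 95% counting interval 0.78 to 2.14), ZIC1, 2.58 against 1.07 RPM (1.20, 0.60 to 1.79), and SIX6, 2.42 against 1.09 RPM (1.08, 0.47 to 1.69). In EZH2-/- +EZH2 all 3 values lay below the input of the same windows, 1.51 RPM at SIX3, 1.71 at ZIC1 and 1.21 at SIX6. The changes are therefore ratios to background. The median log2 change of H3K27ac over the 8 was 0.66, next to 0.67 over all promoters that carry H3K27me3 in EZH2+/+ and 0.16 over all promoters, so the members did not stand out from marked promoters in general. ZIC1 was also the member whose RNA was called higher in the same comparison. Against EZH2+/+, 1 of 8 was higher by 2-fold or more (SIX6, log2 change 1.43, 0.67 to 2.196), with 9.18% of all promoters and 23.2% of marked ones. SIX3 did not differ there by more than counting error (0.16, -0.45 to 0.77), where its level in EZH2+/+ was 1.98 RPM, above that in EZH2-/- +EZH2. The interval also included 0 at LHX2, RAX, HESX1 and EMX2, and the log2 change at LHX2 was -0.17. In EZH2-/+ against EZH2+/+, 0 of 8 were past 2-fold, with 1.07% of all promoters, and OTX2 was the nearest (0.99, 0.40 to 1.58).

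**Figure D4:**
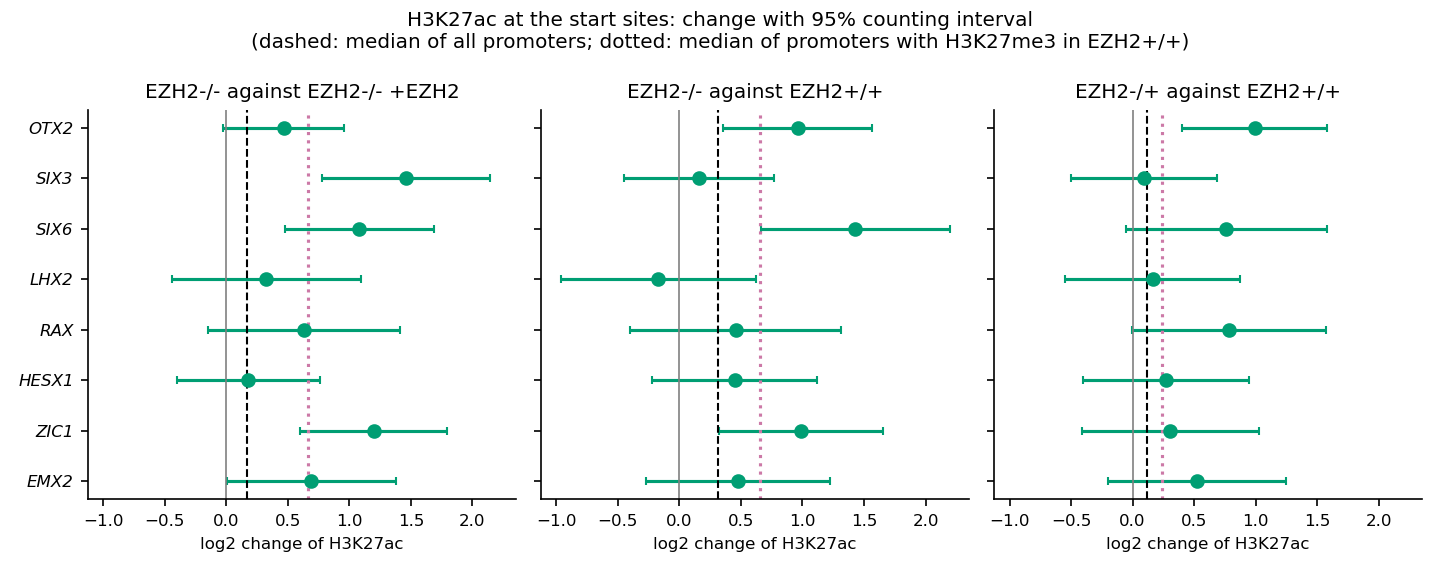
log2 change of H3K27ac at the 8 promoters with its 95% counting interval (horizontal axis) in 3 comparisons, with the median of all promoters (dashed) and of promoters with H3K27me3 in EZH2+/+ (dotted). SIX3, SIX6 and ZIC1 are past 1 in EZH2-/- against EZH2-/- +EZH2, and OTX2 at 0.99 is the highest in EZH2-/+ against EZH2+/+.

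H3K4me3 and H3K4me1, the marks of promoters and enhancers, were read at the same windows. H3K4me3 in EZH2-/- against EZH2+/+ was past 2-fold at 0 of 8 members in either direction, where 12.6% of all promoters were lower and 2.47% higher. Against EZH2-/- +EZH2 it was lower at all 8, by log2 changes of -0.77 at HESX1 to -0.09 at SIX6. The counting interval included 0 at OTX2 (-0.31 to 0.02) and SIX6 (-0.28 to 0.09). Most promoters that carry H3K27me3 in EZH2+/+ were lower too, with a log2 change above 0 at 2198 of 6235. Over all promoters it was above 0 at 20138 of 35683. The median was -0.43 over the members, -0.10 over promoters that carry H3K27me3 in EZH2+/+ and 0.05 over all promoters. In EZH2-/+ against EZH2+/+ it was higher at all 8, as at 5646 of the 6235 promoters that carry H3K27me3 in EZH2+/+. The median was 0.80 over the members and 0.53 over those promoters. LHX2 (1.58) and SIX6 (1.39) were past 2-fold, against 5.19% of all promoters and 11.4% of those with H3K27me3. In EZH2-/- +EZH2 against EZH2+/+ the same LHX2 (1.40) and SIX6 (1.06) were past 2-fold, against 1.71% and 2.47%. The EZH2+/+ H3K4me3 value is the shallowest of the table, at 3.43 M reads per library against 10.3 to 17.4 M, and the 2-fold change at LHX2 rests on 1 window with 6.04 RPM in EZH2+/+. At the other 3 LHX2 windows the log2 change was 0.33 to 0.38 in EZH2-/+ and -0.02 to 0.17 in EZH2-/- +EZH2. H3K4me1 in EZH2-/- against EZH2+/+ was past 2-fold at 0 of 8 members, with 2.34% of all promoters higher, and ranged from -0.48 at RAX to 0.55 at SIX6.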

How the data were processed

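The authors trimmed reads with Trim Galore (0.4.0), aligned RNA-seq reads with TopHat2 (2.0.12) and ChIP-seq reads with Bowtie2 (2.2.5) to GRCh38, counted RNA without strand in SeqMonk, extended ChIP-seq reads by 200 bases, counted non-duplicated reads within 2.5 kb of each start, and deposited log2 RPM values. Per the labels, ChIP-seq columns are means of 2 libraries, without separate replicates; the article gives a higher number, and the counting intervals assume the labelled one. In the deposited log2 values a gene without a read stands at 0.9 of 1 read, and such values were set to 0 RPM. limma (3.58.1, R 4.3.3, lmFit and eBayes with trend) was fitted to log2(RPM + 0.1) over all 12 RNA libraries and 20608 genes averaging 0.1 RPM or more, with Benjamini-Hochberg adjustment. ChIP-seq changes are differences of log2(RPM + 0.1) at 1 window per gene name, with 95% counting intervals from depths recovered from the smallest values. These intervals cover counting error only. Per-kilobase levels use GENCODE v44 exon lengths, which may differ from the gene models of the authors. The study gives 3 biological replicates per line, each genotype is 1 line, and p-values measure the spread between these samples. Same-numbered libraries deviated together in all 18 pairs (r = 0.107 to 0.560, others -0.489 to 0.245), a pairing read from the data and the numbers in the titles. The genes and lists were chosen with earlier results of these data known. Named list genes are, for each comparison of EZH2-/- with EZH2-/- +EZH2 or EZH2+/+, up to 4 with the largest change past the threshold per list, while members, EZH2 and the markers SOX1 and PAX6 are named throughout. Some genes that this rule would name are not reported here. Alternatives were other pseudocounts, filters, scaling, voom weights, smaller fits, a replicate block, libraries left out, other windows, centring and input correction.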

Additional observations from a re-analysis of the deposited data

How the results depend on the processing

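Of the 8 genes, 6 averaged under 1 RPM, and ChIP-seq changes rest on counting intervals without replicates. EMX2 in EZH2-/- against EZH2+/+ kept its call under every alternative that tested it (a mean of at least 1 RPM leaves out every member but OTX2 and HESX1), with log2 fold changes of -2.31 to -1.31 with each library left out. The fits with a library left out used the genes that passed the filter over all libraries, which EMX2 passed only through EZH2+/+. The number of genes called in EZH2-/- against EZH2-/- +EZH2, 650 in the fit reported, was 402 without a filter, 288 at a mean of at least 1 RPM, 274 with voom weights and 1937 with the replicate block, and ran from 137 (without EZH2-/- replicate 2) to 1089 (without EZH2-/+ replicate 3). For EZH2-/+ against EZH2+/+, 236 in the fit reported, it was 46 without a filter, 594 with the replicate block and 10 in the fit on 6 libraries, and ran from 65 to 602 (without EZH2-/+ replicate 3). For EZH2-/- +EZH2 against EZH2+/+, 2123 in the fit reported, it was 4611 with the replicate block and ran from 891 to 3001, and for EZH2-/- against EZH2+/+ it ran from 4139 to 7707. No cause of these shifts was tested.

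ZIC1 in EZH2-/- against EZH2-/- +EZH2 lost its call at a pseudocount of 1 RPM (log2 fold change 0.98) or 0.5 RPM (1.43), without a filter (2.42) and with voom weights (3.06), and ran from 1.93 to 2.81 with each library left out. In EZH2-/- +EZH2 against EZH2+/+, ZIC1 lost its call without a filter (-2.52) and with voom weights (-3.07), with a range of -3.07 to -2.15, and EMX2 lost it at a pseudocount of 1 RPM (-0.40) or 0.5 RPM (-0.68), without a filter (-1.80), with voom weights (-3.74) and in the fit on 6 libraries (-1.80), with a range of -2.28 to -1.27. RAX was called lower in EZH2-/- against EZH2+/+ in the fit on 6 libraries (-1.20). With the replicate block, OTX2 (1.31) and ZIC1 (-2.06) were called in EZH2-/+ against EZH2+/+, and the pairing changed no other call of a member. With each library left out, OTX2 ran from 0.73 to 1.82 and HESX1 from 1.53 to 2.58 in that comparison, and in EZH2-/- against EZH2+/+ SIX3 ran from 0.29 to 1.54 and LHX2 from 0.66 to 1.03.

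The median H3K27me3 change of the 8 promoters in EZH2-/- against EZH2+/+, -4.12, was -3.62 at a pseudocount of 1 RPM and -3.44 when centred on promoters without the mark. In EZH2-/+ it was 0.10, or 0.29 when centred and -0.13 less the change of input, and in EZH2-/- +EZH2 it was -0.17, or 0.089 when centred and -0.38 less the change of input. Of 640 values of a mark at a single member under the alternatives, 555 stayed within the counting interval and 85 moved beyond it.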
